A study of Saccharomyces cerevisiae with 61 samples.

Results

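Genes near the ends of the budding yeast chromosomes were examined for their transcript levels in early meiosis. The table of transcript levels lists 5501 nuclear genes of the SK1 strain, whose identifiers hold the chromosome and an order number along it. For each of the 16 chromosomes, the 8 listed genes with the lowest and the 8 with the highest order numbers were taken, which gave 256 chromosome-end genes of the 5501. The other 5245 are called interior genes here. The end where the numbers start is called the low-number end, and the other the high-number end. Rank 1 is the listed gene nearest to an end, and rank 8 is the innermost member.

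The series is a study of the DNA topoisomerases Top1 and Top2 in meiosis and holds 61 samples, of which 1 is an RNA-seq sample. That sample is a wild-type culture of strain H119 in the SK1 background, a strain used for its efficient sporulation. It was collected 3 h after transfer to sporulation medium at 30 °C, and its messenger RNA was isolated with oligo-dT beads. The labels give no other allele and no drug for it. Values are TPM, transcript levels corrected for length and scaled to a fixed sum, which can therefore be compared between genes. The 5508 listed rows sum to 1000000 TPM, none is at 0, and the read depth is unknown. With 1 sample there is no replicate error and no test, so all differences in transcript level below describe this culture. In a bulk culture, fewer cells transcribing a gene and less RNA per cell cannot be told apart. Pooled peak lists from cultures at 3 h and 30 °C are also used below, for Myc-tagged Top1 and for Top2 in wild-type cells.

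The regions next to yeast telomeres, called subtelomeres, are poor in genes that every cell needs and rich in repeated gene families, many of them with roles in sugar use, cell-wall proteins and stress. Silencing proteins of the Sir complex spread inward from telomeres and can repress genes nearby, an effect known as telomere position effect. In meiosis, the telomeres gather at the nuclear envelope. The identifiers used here carry no gene names and none of the 5501 matched the reference list of names, so members are described by chromosome, end and rank, with no role given.

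Chromosome-end genes had lower transcript levels than interior genes. Their median was 31.4 TPM, against 73.9 TPM for interior genes, a log2 ratio of medians of -1.23. The quartiles were 10.3 and 82.0 TPM at the ends, against 37.4 and 156 TPM in the interior. The mean was 101 TPM for end genes and 186 TPM for interior genes, a log2 ratio of -0.88. End genes made up 4.65% of the listed genes and held 2.58% of the summed TPM. Of the 256 members, 184 (71.9%) lay under the median of all 5501 genes, where the share over all genes is 50% by construction.

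**Figure D1:**
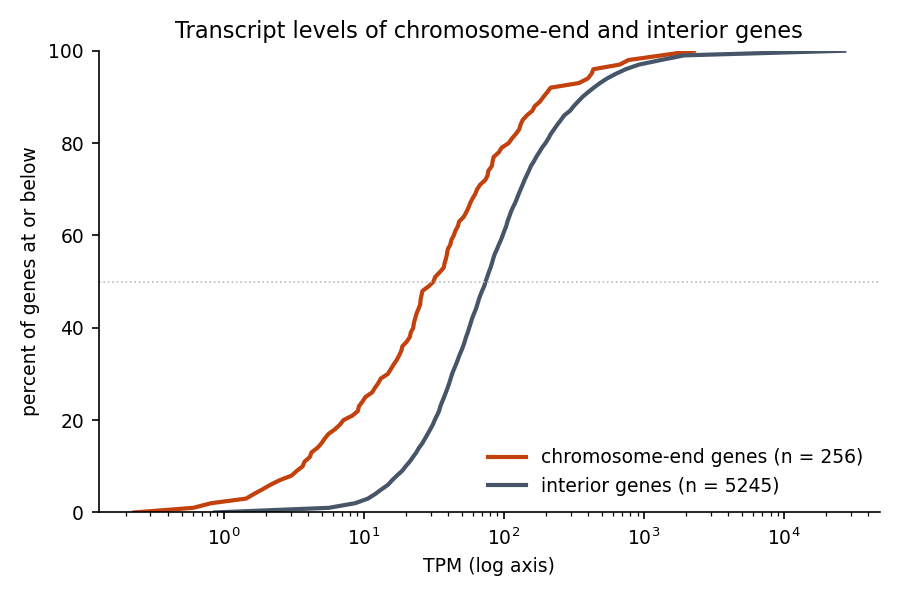
Percent of genes (vertical axis) at or below each TPM value (horizontal log axis) for 256 chromosome-end genes and 5245 interior genes. The end curve lies to the left of the interior curve, with medians of 31.4 and 73.9 TPM, and the gap is widest among low levels.

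The difference was largest at the low end of the range. Of the end genes, 63 (24.6%) had under 10 TPM, against 139 (2.65%) of the interior genes; over all 5501 genes the share was 3.67%. Members thus supplied 31.2% of all genes under 10 TPM. Among the 55 lowest genes of the table, 29 were members, or 11.3% of the members against 1% of all genes. Under 1 TPM there were 7 genes, of which 6 were members, or 2.34% of the members against 0.127% of all genes. The sampling error of such low values is not known without the read depth.

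High levels also occurred at chromosome ends. At least 100 TPM was reached by 53 members (20.7%), against 2061 interior genes (39.3%) and 38.4% of all genes. At least 500 TPM was reached by 10 members (3.91%), against 355 interior genes (6.77%) and 6.64% of all genes. The 4 highest members together held 26.5% of the summed TPM of the 256, so the mean of the group leans on few genes. The spread was wider at the ends: the third quartile was 7.98 times the first among end genes and 4.16 times among interior genes.

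The highest member was SK1_11G03010 with 2270 TPM, at rank 8 from the high-number end of chromosome XI. The next was SK1_16G00120 with 1861 TPM, at rank 6 from the low-number end of chromosome XVI. Both stood above the 95th percentile of interior genes, 629 TPM. The lowest member, and the lowest gene of the whole table, was SK1_12G00030 with 0.230 TPM, at rank 3 from the low-number end of chromosome XII. SK1_03G00020, at rank 1 from the low-number end of chromosome III, had 0.271 TPM. The lowest interior gene had 0.866 TPM.

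**Figure D2:**
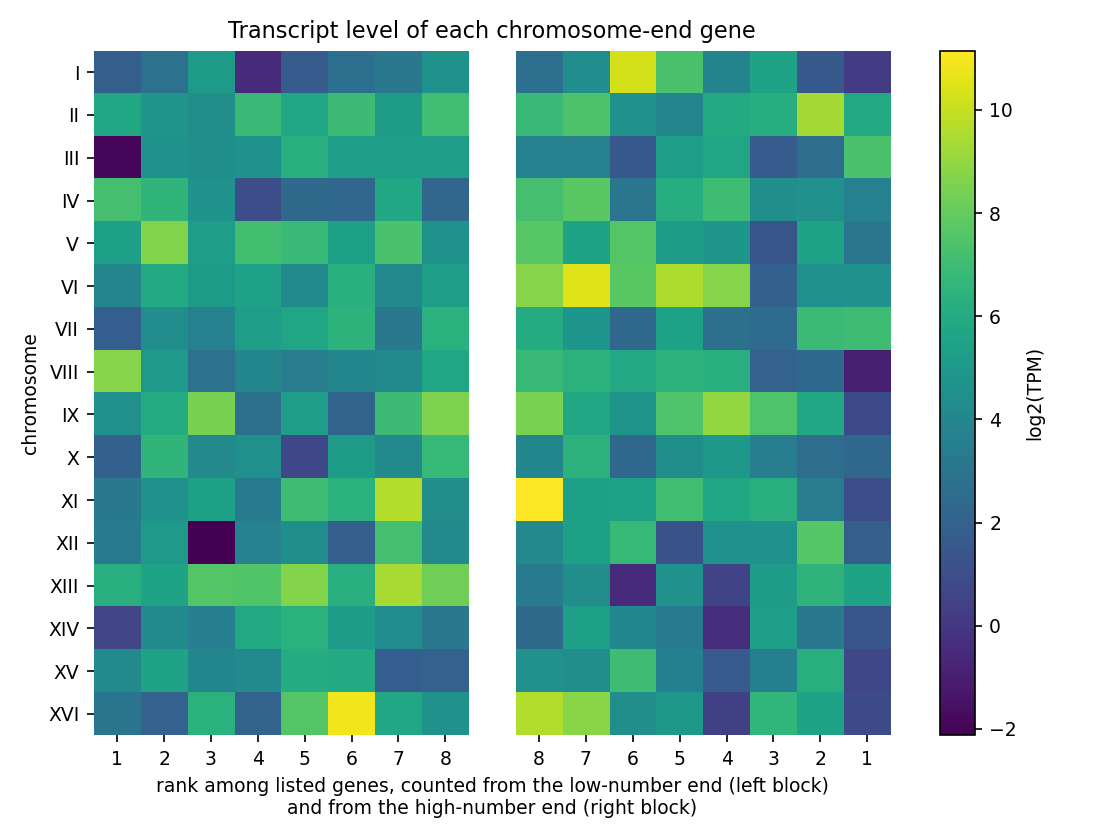
Transcript level, as log2(TPM) in colour, of each of the 256 chromosome-end genes, with 1 row per chromosome. The left block runs inward from rank 1 at the low-number end and the right block runs outward to rank 1 at the high-number end; the darkest cells, under 1 TPM, lie on chromosomes I, III, VIII, XII, XIII and XIV, and the highest, 2270 TPM, is at rank 8 of chromosome XI.

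The median level was lowest for the gene nearest to the end. Over the 32 ends, rank 1 genes ran from 0.271 to 434 TPM with a median of 8.92 TPM, a log2 ratio of -3.05 to the interior median. At 18 of the 32 ends this gene had under 10 TPM. The nearest gene was the lowest of its 8 at 11 ends and the highest at 4. The highest rank 1 gene, with 434 TPM, lies at the low-number end of chromosome VIII, where the 7 genes further in had between 7.35 and 52.3 TPM. The others that were the highest of their 8 were those of the high-number end of chromosome III, with 162 TPM, the low-number end of chromosome IV, with 148 TPM, and the high-number end of chromosome VII, with 131 TPM.

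Past rank 1 the levels were higher, without an even climb. The medians were 32.2 TPM at rank 2, 23.9 TPM at rank 3 and 25.2 TPM at rank 4. They were 42.1 TPM at rank 5, 38.7 TPM at rank 6, 42.6 TPM at rank 7 and 38.5 TPM at rank 8. With both ends pooled, the medians of ranks 2 to 8 were thus all below the interior median of 73.9 TPM, and the 32 genes of each rank spread over at least 2 orders of magnitude. The number of genes with under 10 TPM was 18 of 32 at rank 1, 7 at rank 2, 7 at rank 3 and 9 at rank 4. It was 5 at rank 5, 9 at rank 6, 3 at rank 7 and 5 at rank 8. Genes with at least 100 TPM numbered 4 of 32 at rank 1 and 12 of 32 at rank 8. Over all 5501 genes, 38.4% had at least 100 TPM and 3.67% had under 10 TPM, so the rank 8 count of high genes was near the share over all genes.

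Taken over all 8 ranks, both ends of the numbering had medians below the interior. The 128 genes of the low-number ends had a median of 32.2 TPM and the 128 of the high-number ends 30.3 TPM. Under 10 TPM there were 29 genes (22.7%) at low-number ends and 34 (26.6%) at high-number ends. At rank 1 itself, 8 of 16 genes at low-number ends and 10 of 16 at high-number ends had under 10 TPM. At rank 8 the median was 31.9 TPM over the 16 low-number ends and 89.4 TPM over the 16 high-number ends, the only rank of either end with a median above the interior median of 73.9 TPM.

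Further in, the medians were close to that of the interior. The 256 genes at ranks 9 to 16 from an end had a median of 66.8 TPM, and 16 of them (6.25%) had under 10 TPM, against 2.47% of the genes deeper than rank 16. The median was 69.5 TPM at ranks 17 to 24, 80.4 TPM at ranks 25 to 32 and 66.8 TPM at ranks 33 to 40. The choice of 8 genes per end puts a limit between ranks 8 and 9. The 32 genes at rank 8, just inside it, had a median of 38.5 TPM with 5 under 10 TPM, and the 32 at rank 9, just outside, a median of 45.9 TPM with 4 under 10 TPM.

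**Figure D3:**
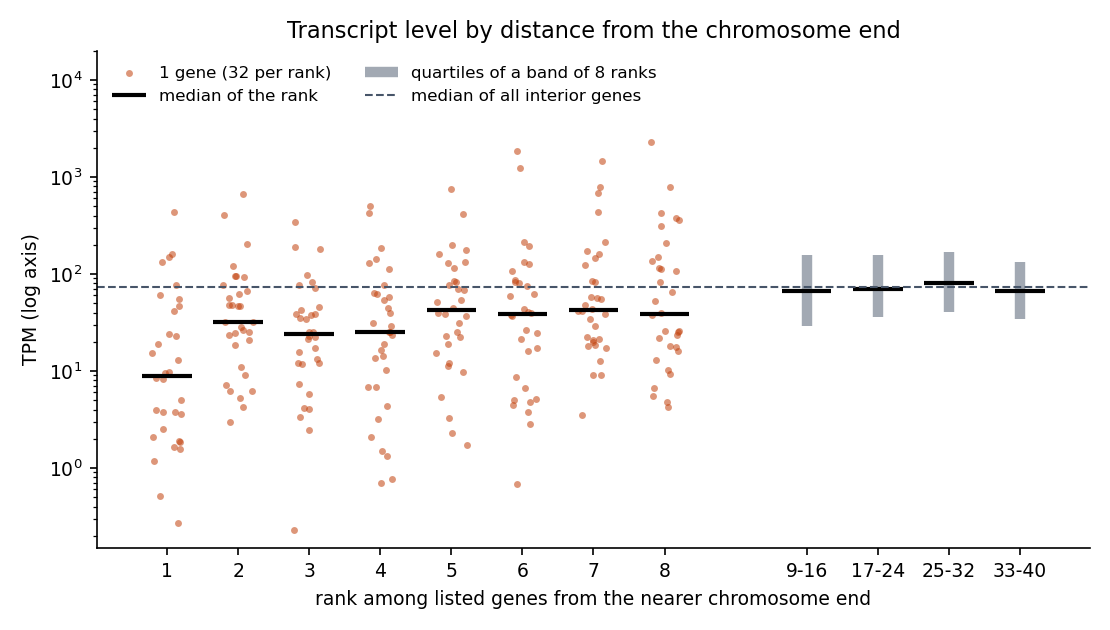
TPM (log axis) of the 32 genes at each rank from the nearer end, with the median of the rank as a black line, followed by the median and quartiles of bands further in and the interior median as a dashed line. Rank 1 has the lowest median, 8.92 TPM, ranks 2 to 8 lie between 23.9 and 42.6 TPM, and the bands from rank 9 inward lie near the interior median of 73.9 TPM.

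Most single ends followed the overall pattern. The median of the 8 genes lay below the interior median of the same chromosome at 28 of 32 ends, at 15 of 16 low-number ends and 13 of 16 high-number ends. At 20 ends it was at least 2 times lower and at 7 ends at least 4 times lower. How often interior stretches of 8 genes meet these limits was not counted. Both ends were below the interior on 12 of the 16 chromosomes. Interior medians of single chromosomes, each over 72 to 697 genes, lay between 59.3 TPM on chromosome VIII and 97.5 TPM on chromosome V.

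The end with the lowest median was the low-number end of chromosome I, the chromosome with the fewest listed genes (88). Its 8 genes, from rank 1 inward, had 3.76, 7.17, 34.0, 0.698, 3.27, 6.70, 9.08 and 25.9 TPM. The median was 6.93 TPM, against 68.3 TPM for the interior of chromosome I, and all 8 were below that interior median. Next came the high-number end of chromosome XIV, with a median of 9.46 TPM against 72.9 TPM in its interior. From rank 1 inward it had 2.53, 9.11, 38.6, 0.773, 9.80, 17.1, 41.7 and 5.52 TPM. All 8 of these genes also lay below the interior median.

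At 4 ends the median exceeded that of the interior. The highest was the high-number end of chromosome VI, with a median of 318.1 TPM against 88.9 TPM in the interior. Its 8 genes had 23.8, 23.2, 4.00, 421, 743, 215, 1448 and 425 TPM from rank 1 inward. Here the 3 outermost genes were below the interior median and the 5 further in were above it. The low-number end of chromosome XIII had a median of 187 TPM against 71.4 TPM in its interior. From rank 1 inward it had 77.4, 47.1, 191, 184, 412.9, 74.8, 686 and 310 TPM. It was the only end of the 32 with 7 of 8 genes above its chromosome's interior median.

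The high-number end of chromosome IX had a median of 118 TPM against 71.1 TPM in the interior. Its rank 1 gene had 1.84 TPM, while rank 4 had 507 TPM and rank 8 had 358 TPM. The high-number end of chromosome VIII had a median of 67.6 TPM against 59.3 TPM in its interior. Its 3 outermost genes had 0.513, 5.30 and 4.19 TPM, and the 5 further in had 59.1 to 113 TPM. By the mean of log2(TPM + 1) this end was below its interior, with 4.68 against 6.17. The outermost gene was below the interior median at this end as on chromosomes VI and IX.

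**Figure D4:**
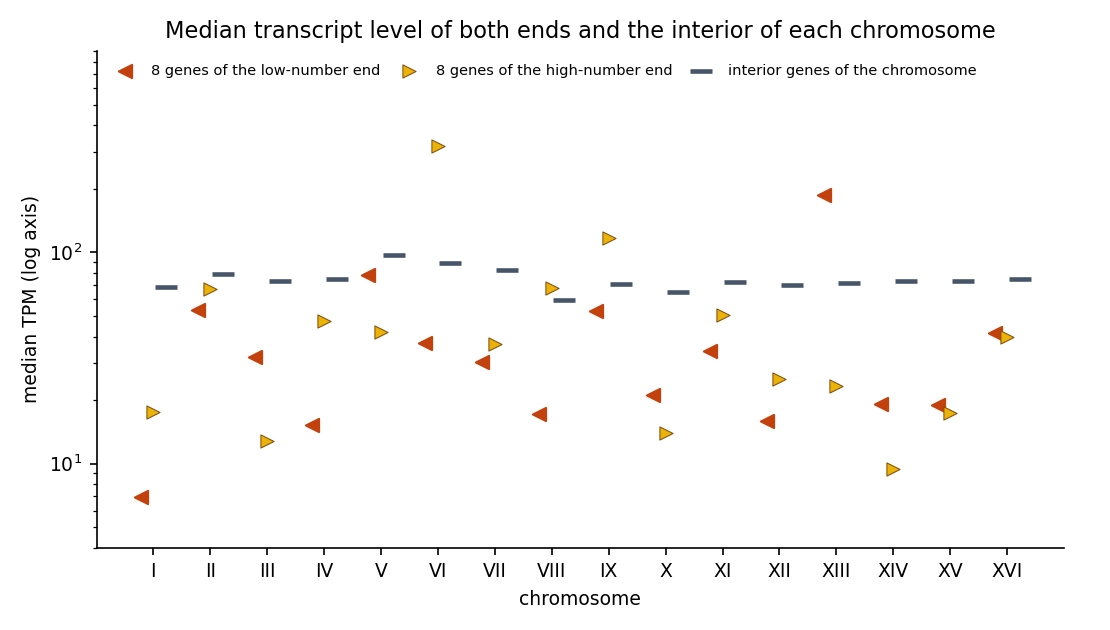
Median TPM (log axis) of the 8 genes of the low-number end, of the 8 genes of the high-number end and of the interior genes, for each chromosome. At 28 of 32 ends the triangle lies below the interior dash of the same chromosome; the ends above it are the high-number ends of VI, VIII and IX and the low-number end of XIII.

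The 2 ends of a chromosome often differed in level. Their medians differed by more than 2 times on 8 of 16 chromosomes. The high-number end was the higher one on 9 chromosomes and the low-number end on 7. The widest gaps were on chromosome VI, with 318.1 TPM at the high-number and 37.1 TPM at the low-number end, and on chromosome XIII, with 23.4 TPM at the high-number and 187 TPM at the low-number end. On chromosome XV the medians were 17.3 TPM at the high-number and 18.9 TPM at the low-number end.

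With chromosomes grouped into classes by their number of listed genes, the medians of their end genes showed no order. Single chromosomes of a class differed widely: over both ends, chromosome I had a median of 8.1 TPM and chromosome IX 61.7 TPM. The 80 end genes of the 5 chromosomes with the fewest listed genes (I, III, VI, VIII and IX) had a median of 29.3 TPM. The 80 of the next 5 (II, V, X, XI and XIV) had 37.3 TPM, and the 96 of the 6 with the most genes (IV, VII, XII, XIII, XV and XVI) had 25.3 TPM. The share under 10 TPM was 26.2%, 20.0% and 27.1% in that order. Chromosome I held the most, 9 of its 16 members, and chromosome II held 0 of 16. The 8 genes of the low-number end of chromosome II ranged from 21.3 to 137 TPM and those of its high-number end from 15.4 to 662 TPM.

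Low and high genes lay side by side within an end. At least 1 gene with under 10 TPM was present at 27 of 32 ends and at least 1 with 100 TPM or more at 23, and 19 ends had both. The counts of 23 and 19 were not set beside interior stretches of the same size. Fewer end genes than interior genes reached 100 TPM, 20.7% against 39.3%, so these counts do not show that high genes are frequent at ends. Between next listed neighbours the median fold difference was 3.79 over 224 pairs at the ends and 2.70 over 5229 pairs in the interior. Neighbours differed by more than 10-fold in 24.6% of the end pairs and 14.2% of the interior pairs. Levels are also more widely spread at the ends, as the quartiles above show. By rank, the Spearman's rho between neighbours was higher at the ends, 0.251 over the 224 pairs, against 0.069 over the 5229 interior pairs. Pairs share genes and the library, so this is a description. Each rho pools all chromosomes, so differences in level between ends enter it. Medians ran from 6.93 to 318.1 TPM over single ends and from 59.3 to 97.5 TPM over single interiors. Likeness of neighbours within an end was not measured apart from this. Listed genes under 10 TPM formed 47 unbroken runs of any length at the ends and 133 in the interior. Runs of 3 or more genes occurred 3 times at the ends and 0 times in the interior. Genes under 10 TPM were also more frequent at the ends, 24.6% against 2.65% in the interior, and no allowance was made for this. Of these runs, those at the ends included the longest. It was 4 genes long, at the low-number end of chromosome I.

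To set single ends beside ordinary stretches of the same size, the interior of each chromosome was divided into successive windows of 8 listed genes, which gave 650 windows. Their medians ran from 19.7 to 465 TPM, with a 5th percentile of 38.5 TPM and a 95th of 161 TPM. A median under 20 TPM was found at 11 of 32 ends (34.4%) and in 1 of 650 windows (0.154%), which is 1.76% of ends and windows together. At least 3 genes of 8 had under 10 TPM at 10 ends and in 1 window, 1.61% of both together. No gene under 10 TPM was found at 5 ends (15.6%) and in 529 windows (81.4%), 78.3% of both together. Windows were drawn up after the values of the ends were known, and their genes are not replicates.

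Order numbers with no listed gene were concentrated near the ends. The numbers advance in steps of 10, except for 1 gene of chromosome I, a member, whose number is 15. Up to the highest listed gene of each chromosome there were 5544 numbers, of which 43 (0.776%) had no listed gene. In the end stretches, which run from the first number to the 8th listed gene at low-number ends and over the last 8 listed genes at high-number ends, 39 of 294 numbers (13.3%) were unlisted, against 4 of 5250 (0.0762%) in the interior. The end stretches held 5.30% of the numbers and 90.7% of the unlisted ones. Why these numbers are not listed was not tested; the table holds no value for them.

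At low-number ends 26 of 153 numbers (17%) were unlisted, and at high-number ends 13 of 141 (9.22%). These 2 shares are not alike in kind, because numbers past the highest listed gene cannot be counted. Of the 26 numbers at low-number ends, 21 came before the first listed gene. The count takes the numbering to start at 10 on every chromosome, which could not be checked without an annotation. On that count, the first 6 numbers were unlisted on chromosome XVI and the first 5 on chromosomes II and X. Rank 1 there would then not be at the outermost number. On 8 of 16 chromosomes the first number itself was unlisted. Between listed genes, the longest gap was 5 numbers at the high-number end of chromosome XV, from 4910 to 4950. Chromosomes I, IV, IX and XII had 0 unlisted numbers.

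**Figure D5:**
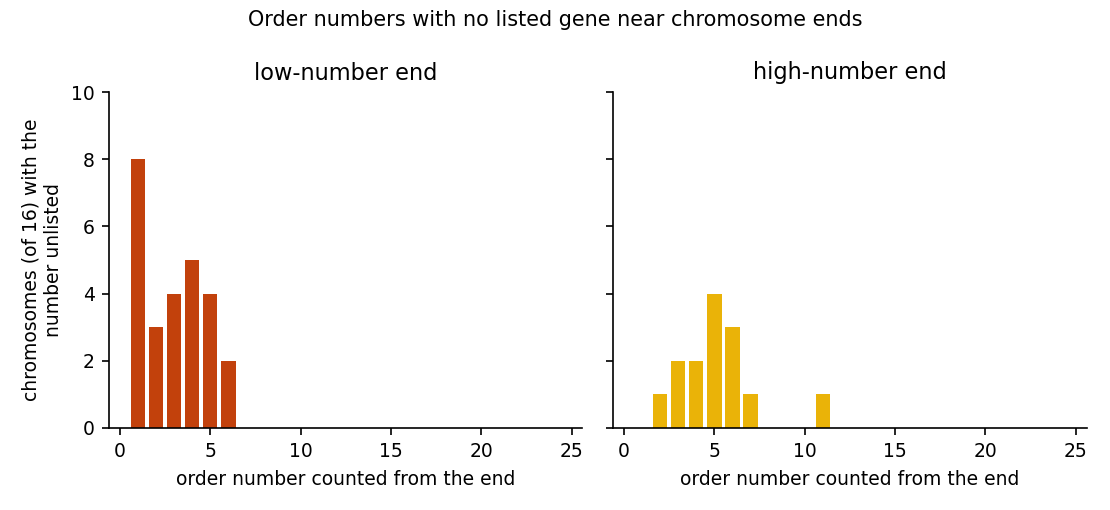
Number of chromosomes, of 16, in which the order number at a given place from the end has no listed gene, for low-number ends and for high-number ends. Among the first 24 places plotted, unlisted numbers lie within the first 6 places at low-number ends and, apart from 1 at place 11, within the first 7 at high-number ends, where counting starts at the highest listed gene and place 1 is listed by definition.

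Members next to an unlisted number were set beside the other members. The 25 next to one had a median of 12.1 TPM and 10 of them (40%) had under 10 TPM. The 231 others had a median of 34.9 TPM and 53 of them (22.9%) had under 10 TPM. The 2 groups were not matched for rank. The 25 include the rank 1 genes of the 8 low-number ends whose first number was unlisted, and rank 1 had the lowest median, 8.92 TPM. At high-number ends, numbers outside rank 1 cannot be counted. Members next to an unlisted number also occurred at other ranks, but the 2 groups were not compared rank by rank. Position and nearness to an unlisted number were therefore not separated here. Without the 25, the log2 ratio of the end median to the interior median was -1.08. Many subtelomeric gene families have near-identical copies, and the sources used here do not give how reads that match several copies were counted; its part in the levels was not tested.

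Top1 and Top2 peaks were counted along the same chromosome ends, in base pairs because the gene identifiers carry no positions. Within 20 kb of an end, the authors' Top1 peak list had 13.9 peaks per 100 kb, against 19.2 in the rest, and the Top2 list had 18.0 peaks per 100 kb, against 23.6 in the rest. Top1 carried a Myc tag and Top2 was recovered from wild-type cells with an antibody. Both lists come from pooled cultures at 3 h and 30 °C. Chromosome length was taken as the last peak end, so sequence beyond the last peak was not counted. The stretch at that end of each chromosome was thus placed by the peaks themselves, and its density is partly fixed by this choice. The part of repeated sequences near ends in these densities was not tested.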

How the data were processed

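The RNA-seq values are TPM, deposited by the authors as 1 column for 1 culture. Per the submitters' processing notes, Bowtie, TopHat2, featureCounts and MACS2 2.1.1 were among the tools used in the series, without a role for each. The file name mentions the SK1 assembly called Yue and a further listed tool, whose part in the values is not given. Per the labels' protocols, RNA was selected with oligo-dT and libraries were strand-specific. Filters and the counting of reads with several matches are not given in the sources used here. The rows sum to 1000000 with none at 0. Of 5508 rows, 6 mitochondrial symbols and 1 identifier with an added ending were left out of the 5501 genes; the number of the latter was counted as listed. The authors' deposited MACS2 broad peaks carry a fold enrichment each, but only their midpoints were counted here. The 28 spike-in count tables hold no gene values and were not used.

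Members were found from the identifiers alone. Medians, quartiles and shares were computed in pandas 2.3.3 and numpy 2.4.6 under Python 3.11.15, and plots were drawn in matplotlib 3.10.9. No count model applies to TPM, and 1 sample allows no test. The steps were tested on simulated identifiers with known ends and gaps. Identifiers are printed for the 2 highest and the 2 lowest members; others are named as the extremes of a rank, the members of the ends with the highest and lowest medians, or the gene nearest to an end. The ends of chromosomes II, VIII and IX, the limits in TPM and the windows of 8 genes were chosen after their values were seen, and members and comparisons were chosen with earlier results of these data known. Alternatives changed the number of genes per end, the filter on low TPM, the treatment of unlisted numbers, the average and its pseudocount, the chromosomes included and the distance for peaks.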

Additional observations from a re-analysis of the deposited data

How the results depend on the processing

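The direction held under every alternative for which both sides were computed. The log2 ratio of the end median to the interior median, -1.23, was -1.63 with 4 genes per end, -0.66 with 16, -0.70 over genes of at least 10 TPM, -1.64 with unlisted numbers counted as 0 and -0.88 between means. Leaving out each chromosome in turn gave -1.49 to -1.09. The share of end genes under 10 TPM, 24.6%, was 32.03% with 4 genes per end, 19.0% with 12, 15.4% with 16 and 34.6% with unlisted numbers counted as 0. Over all 5501 listed genes the share was 3.67%, and among genes deeper than rank 16 it was 2.47%. Interior shares with 4 or 12 genes per end, or with unlisted numbers counted as 0, were not computed. With other limits, chosen like that of 10 TPM after seeing the data, 15.2% of end genes and 0.820% of interior genes had under 5 TPM, and 36.7% and 10.1% under 20 TPM. The share of unlisted numbers, 13.3%, was 20.3% over the first 8 numbers of low-number ends and 5.08% over the first 32. The cause of these shifts was not tested beyond what each alternative changes. The count of 28 ends below their interior was 29 by means of log2(TPM + 1), which adds the high-number end of chromosome VIII, and peak densities stayed lower near the ends at 10 and 40 kb. No paired analysis was possible because there is 1 RNA-seq sample. The lack of replicates and the unknown depth limit all levels, the lowest most.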

Other observations

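In the interior, 4 order numbers had no listed gene. On chromosome III they were 550, 980 and 1430, and on chromosome VIII 2160. The number 1430 is the 11th from the highest listed gene of chromosome III and so lies just inward of the members of that end.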
